A study of Arabidopsis thaliana with 12 samples.

Results

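The 5 genes of Arabidopsis thaliana described here are AT4G35660, AT4G18180, AT3G04210, AT5G11550 and AT3G50130, each measured by 1 array probe annotated to that gene alone. They are 5 of the 692 probes with a single annotated gene, among 3439 probes in all. They were chosen by their values: their intensity was lower under photosystem II light, and they passed the test between the light regimes both with all replicates and with any 1 replicate left out. Size and stability of the difference between the regimes are therefore what chose them, and are given below as a description that supports nothing further. All plants were wild type (WT) and of the ecotype C24, and total RNA was measured. They had been grown in light that was specific either for photosystem I (PSI light) or for photosystem II (PSII light). The regimes are thus the sole labelled difference. The age and tissue of the plants, the lamps, the length of the treatment and whether plants were pooled are not given in the sources used here.

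The 12 samples, 6 per regime, formed 3 replicates per regime. Within both groups, samples 1 and 2, 3 and 4, and 5 and 6 deviated together across probes, so each such pair was averaged as a repeat measurement and counted once. The labels do not state such repeats, nor whether replicates came from separate plants, so the spread between them may be technical. Summed intensity per sample ranged from 3643 to 3768 arbitrary units, and the number of arrays limits the precision. Genes typical of green tissue had 4 usable probes for 7 loci. Among them the antenna gene LHB1B2 had PSI-light and PSII-light intensities of 22.3 ± 2.85 and 10.03 ± 1.25, and PSBW, a small photosystem II subunit gene, had 16.6 ± 1.42 and 19.6 ± 2.44 (SD, n = 3). The other genes were far dimmer, PRK with 0.625 ± 0.0805 and 0.869 ± 0.175 and SBPASE with 0.619 ± 0.0737 and 0.817 ± 0.0949 (SD, n = 3). In PSI light PRK lay above 49.5% of all probes and SBPASE above 48.9%. Of these 4 genes LHB1B2 passed the test described below, with a lower value in PSII light (adjusted p = 0.0203, limma with Benjamini-Hochberg), and PSBW, PRK and SBPASE did not.

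In plants, the photosystems work in series along the thylakoid membrane. Light absorbed mainly by photosystem II pushes electrons into the plastoquinone pool between them, and light absorbed mainly by photosystem I draws electrons out. The redox state of this pool governs how antenna proteins are shared between the photosystems, and it is one source of signals from the plastid to the nucleus. The 5 genes lie on nuclear chromosomes 3, 4 and 5. The gene annotation used here holds no protein descriptions, so it cannot say whether any of them belongs to the photosynthetic apparatus. The protein families given below came with the list of genes. AT3G04210 encodes a TIR-NBS protein. This group of intracellular proteins is related to the plant immune receptors: the TIR domain acts in immune signalling, and the nucleotide-binding site works as a switch. AT4G18180 belongs to the pectin lyase-like superfamily, whose shared right-handed helix is found in enzymes that cut the pectin of plant cell walls. AT5G11550 encodes an armadillo-repeat protein, a fold of stacked helices that binds other proteins. For AT4G35660 and AT3G50130 the sources used here give no family or function.

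AT3G04210, the TIR-NBS gene, had replicate intensities of 2.41, 2.40 and 2.68 in PSI light and 1.04, 1.20 and 1.03 in PSII light. The means were 2.49 ± 0.157 and 1.09 ± 0.0952 (SD, n = 3), so that PSII-light plants had 43.8% of the PSI-light intensity. The groups did not overlap: the lowest of the 6 PSI-light samples, at 2.31, was 1.87 times the highest PSII-light sample, at 1.23. The gene was chosen by this contrast. Over all probes, the PSII-light replicates all lay below the PSI-light replicates for 8.32%, a share counted on replicate means and not on single samples. Replicate 3 was the highest in PSI light, and replicate 2 was the highest in PSII light. In bulk RNA, fewer cells that express a gene and less of its RNA per cell cannot be told apart, and this holds for all 5 genes.

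AT4G18180, the pectin lyase-like gene, had replicate intensities of 1.92, 2.27 and 1.79 in PSI light and 0.679, 0.637 and 0.579 in PSII light. Its means were 1.99 ± 0.248 and 0.632 ± 0.0499 (SD, n = 3), which left 31.7% of the PSI-light intensity. Every PSI-light sample lay at 1.79 or above and every PSII-light sample at 0.717 or below. Replicate 3 was the lowest in both regimes.

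AT5G11550, the armadillo-repeat gene, had replicate intensities of 1.13, 1.27 and 1.04 in PSI light and 0.536, 0.551 and 0.537 in PSII light. The means were 1.15 ± 0.116 and 0.541 ± 0.00821 (SD, n = 3), or 47.1% of the PSI-light intensity in PSII light. The PSII-light replicates of this gene lay close together, with a coefficient of variation (SD as a percentage of the mean) of 1.52%, against 10.1% in PSI light. The median coefficient over all probes was 9.09% in PSII light and 9.52% in PSI light. In PSI light AT4G35660, with 13.6%, and AT4G18180, with 12.4%, lay above that median, and AT3G04210, with 6.31%, below it. Their PSII-light coefficients were 7.95%, 7.89% and 8.71%. The choice of genes by stable calls favours a small spread between replicates, so the comparison with the median partly restates that choice. For AT5G11550, replicate 2 was the highest in both regimes.

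AT4G35660 showed the largest difference of the 5 genes. Its replicate intensities were 5.38, 6.96 and 6.77 in PSI light and 1.19, 1.37 and 1.19 in PSII light. The means of 6.37 ± 0.864 and 1.25 ± 0.0994 (SD, n = 3) put PSII light at 19.6% of PSI light. Samples ranged from 5.34 to 7.01 in PSI light and from 1.13 to 1.47 in PSII light, so that the lowest PSI-light sample was 3.64 times the highest PSII-light sample. Replicate 1 stood below the other PSI-light replicates.

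AT3G50130 had replicate intensities of 1.01, 0.958 and 0.996 in PSI light and 0.493, 0.543 and 0.515 in PSII light. Its means were 0.989 ± 0.0280 and 0.517 ± 0.0253 (SD, n = 3), a remainder of 52.3%. This was the smallest difference of the 5 genes, and it came with coefficients of variation of 2.83% in PSI light and 4.89% in PSII light. The repeat measurements of PSII-light replicate 3 stood apart, at 0.463 and 0.567, a gap of 20.2% of their mean. That gap was the widest between repeats among the 5 genes, and the higher value was still below the lowest PSI-light sample at 0.947.

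**Figure D1:**
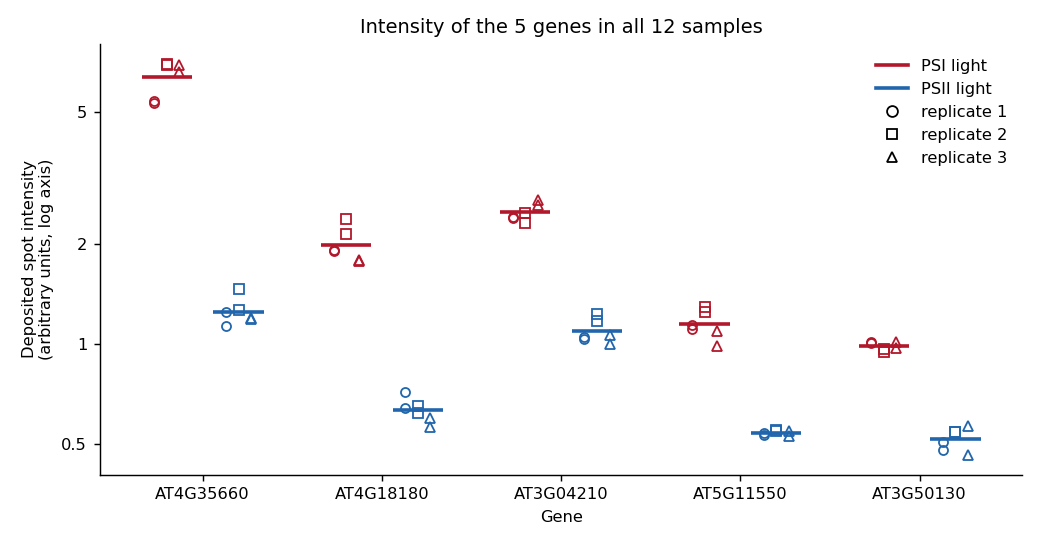
Deposited spot intensity (arbitrary units, log axis) of the 5 genes in the 12 samples; colours mark the light regime, marker shapes the 3 replicates (2 repeat measurements each) and horizontal lines the group means. No PSII-light sample reaches the lowest PSI-light sample of the same gene, and the genes were chosen by this contrast. On replicate means, such a separation held for 8.32% of all probes. The distance between the groups is widest for AT4G35660, with means of 6.37 and 1.25.

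Set against the same-numbered PSII-light replicate, the PSI-light intensity was 4.51 to 5.67 times as high for AT4G35660 and 2.82 to 3.56 times for AT4G18180. The ratio was 1.99 to 2.59 for AT3G04210, 1.94 to 2.31 for AT5G11550 and 1.76 to 2.05 for AT3G50130. The ranges of AT4G35660 and AT4G18180 overlapped with no other gene's, while those of the other 3 genes overlapped with one another. The genes did not share one order of replicates. In PSI light replicate 2 was the highest for AT4G35660, AT4G18180 and AT5G11550, replicate 3 for AT3G04210 and replicate 1 for AT3G50130. In PSII light replicate 2 was the highest for all but AT4G18180, for which it was replicate 1.

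On the scale of the test, log2 of intensity plus a pseudocount of 0.193 after quantile normalization, the difference (PSII minus PSI light) was -2.20 ± 0.12 for AT4G35660 and -1.41 ± 0.09 for AT4G18180 (SE). It was -1.08 ± 0.09 for AT3G04210, -0.91 ± 0.07 for AT5G11550 and -0.79 ± 0.07 for AT3G50130 (SE). These sizes are smaller than those of the plain intensities because the pseudocount weighs on dim spots: AT5G11550 was 2.12-fold lower on plain intensities and 1.88-fold lower on this scale. The mean intensity was 19.7 times the pseudocount for AT4G35660, and 3.90 times for AT3G50130. With a pseudocount of 1.93 the log2 differences were -1.39 for AT4G35660, -0.61 for AT4G18180, -0.55 for AT3G04210, -0.33 for AT5G11550 and -0.27 for AT3G50130, a compression that follows from adding a larger constant.

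The values that chose the genes were the adjusted p of limma with Benjamini-Hochberg adjustment over all probes, with a threshold of 0.05. It was 0.00248 for AT4G35660 and AT4G18180 and 0.00467 for AT3G04210, AT5G11550 and AT3G50130 (limma, Benjamini-Hochberg). Over all probes 108 of 3439 passed (3.14%), 82 of them lower in PSII light (2.38%). Of the 692 single-gene probes, 12 passed with a lower value (1.73%). Lower intensity that passed in all 6 fits with 1 replicate left out was found for 16 probes (0.465%). Of these 16, the 5 genes described here were the ones with a single annotated gene, and the others were annotated to several genes or not listed in the annotation. All PSII-light replicates lay below all PSI-light replicates for 8.32% of probes. These shares are given for scale, since the genes were picked from this contrast.

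With 1 replicate left out, the adjusted p reached 0.0229 for AT4G35660 and AT4G18180, both without PSII-light replicate 1. It reached 0.0393 for AT3G04210 and AT3G50130 and 0.0363 for AT5G11550, all without PSI-light replicate 1 (limma, Benjamini-Hochberg). The log2 difference then ranged from -2.31 to -2.11 for AT4G35660 and from -0.84 to -0.75 for AT3G50130. AT3G04210 and AT3G50130 were thus the genes just inside the threshold. Just outside it, among the 7 other single-gene probes called lower, was AT-HF (AT4G26900), which makes an enzyme of the histidine pathway, with a log2 difference of -0.55 and a highest adjusted p of 0.0671 (limma, Benjamini-Hochberg). The largest differences among these 7 were those of LHB1B2 with -1.13 and a highest adjusted p of 0.0815, PSB27 with -0.82 and 0.125, and AT2G39100 with -0.59 and 0.150 (limma, Benjamini-Hochberg). LHB1B2 encodes a light-harvesting protein of photosystem II and PSB27 a factor in its assembly and repair. By size, LHB1B2 lay between AT4G18180 and AT3G04210, and PSB27 between AT5G11550 and AT3G50130. The standard errors of LHB1B2 and PSB27 were 0.15 and 0.14, while those of the 5 genes ranged from 0.07 for AT3G50130 to 0.12 for AT4G35660. Not all of the 7 had larger errors than the 5 genes. The standard error was 0.10 for AT2G39100, 0.06 for AT-HF and 0.05 for AT4G34310, which was also among the 7. Stable calls favour small standard errors, so this comparison partly restates how the genes were chosen.

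**Figure D2:**
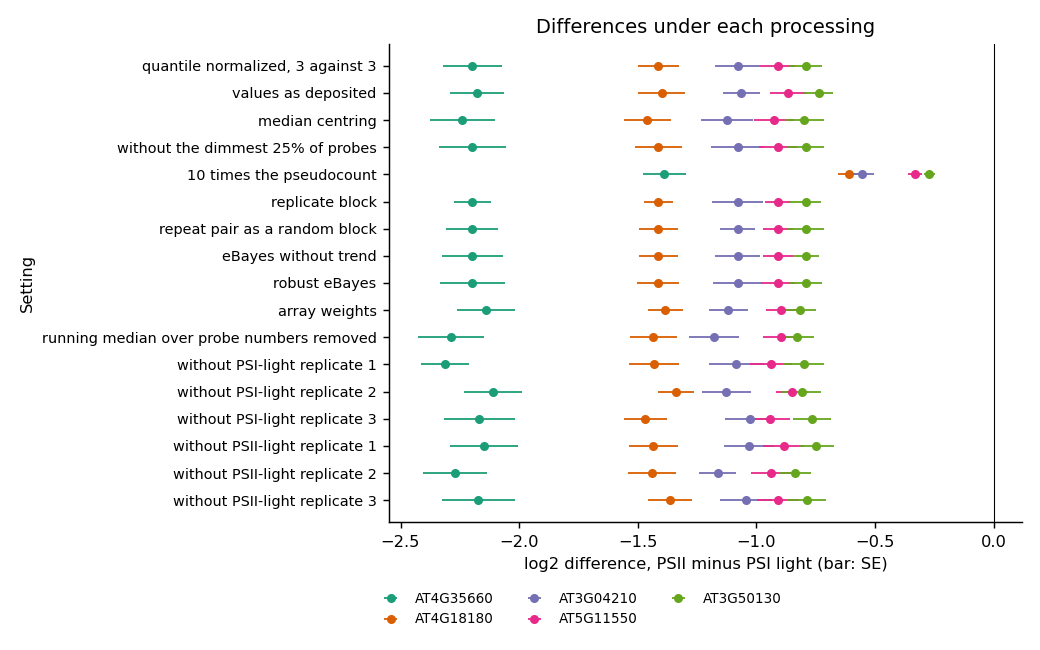
Log2 difference between PSII and PSI light of the 5 genes (points, with SE as bars) under 17 settings, the top row being the 3 against 3 comparison on quantile-normalized values. All points lie below 0, and they move most with a pseudocount of 1.93, where AT4G35660 is at -1.39 and AT3G50130 at -0.27.

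Ranked by log2 difference over all 3439 probes, AT4G35660 had the second most negative value, after a probe annotated to 3 genes with -2.32. AT4G18180 ranked 6, AT3G04210 14, AT5G11550 30 and AT3G50130 42. Among the 692 single-gene probes the ranks were 1, 2, 4, 6 and 8. The gaps in this order were filled by LHB1B2, PSB27 and AT2G36480, the last which differed by -0.99 ± 0.23 on the log2 scale (SE) without passing the test (adjusted p = 0.0778 by limma with Benjamini-Hochberg) and is named after its value was seen. The median log2 difference of all probes was 0.01.

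**Figure D3:**
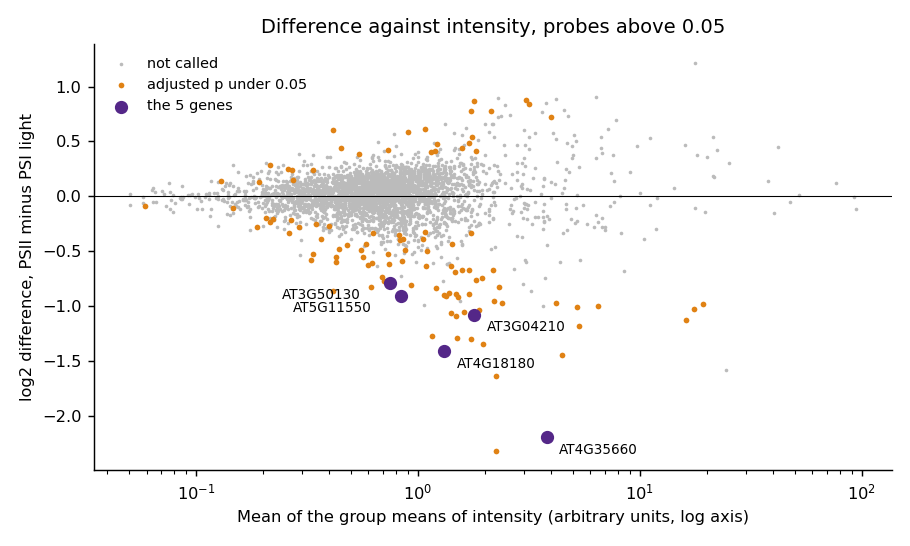
Log2 difference between PSII and PSI light against mean intensity (log axis) for the probes above an intensity of 0.05; orange points passed an adjusted p under 0.05 and purple points are the 5 genes. The 5 genes lie among the lower points, from -0.79 for AT3G50130 to -2.20 for AT4G35660. Of all probes, 41 had a more negative value than AT3G50130 and 29 a more negative value than AT5G11550.

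AT3G50130 was the 1 gene of the 5 that the annotation also gives for a second probe. Probe 3885 is annotated to AT3G50130 and 2 further loci of the same stretch of chromosome 3, AT3G50140 and AT3G50190, and it took no part in choosing the genes. Its intensity was 2.13 ± 0.135 under PSI light and 1.27 ± 0.134 under PSII light (SD, n = 3), with samples from 1.97 to 2.39 and from 1.06 to 1.36. The groups did not overlap, and on replicate means the same held for 8.32% of all probes, with PSII light lower. The log2 difference was -0.67 ± 0.10 (SE; limma, Benjamini-Hochberg adjusted p = 0.0300). Its call was lost with the replicate number as a block (adjusted p = 0.0712) and in 5 of the 6 fits with 1 replicate left out, with an adjusted p of up to 0.107 without PSI-light replicate 1 (limma, Benjamini-Hochberg). Which of the 3 loci gave the signal of this probe cannot be told from its annotation.

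Probes for genes near the 5 genes were few. Within 10 protein-coding genes on either side, in the gene order of the TAIR10.1 annotation, 1 probe had a single annotated gene. It was that of AT3G50180, 5 genes from AT3G50130, whose PSI-light and PSII-light intensities were 0.900 ± 0.0301 and 0.810 ± 0.0195 (SD, n = 3). Its log2 difference of -0.17 ± 0.06 did not pass the test (SE; limma, Benjamini-Hochberg adjusted p = 0.171). Probe 4538, annotated to AT3G50140 and AT3G50190 but not to AT3G50130, differed by -0.27 ± 0.06 on the log2 scale (SE), which did not pass either (adjusted p = 0.0778 by limma with Benjamini-Hochberg). Near AT4G35660, AT3G04210 and AT5G11550 lay 7 probes annotated to several genes, with log2 differences from -0.10 to 0.25 and 0 calls (lowest adjusted p = 0.291, limma with Benjamini-Hochberg), and there was 0 near AT4G18180. This window was chosen after the values were seen.

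Probes numbered next to those of the 5 genes were examined, although the sources used here do not say whether numbers follow the position of spots. Of 20 numbers up to 2 away, 16 were in the table, and 1 of these passed the test, beside 108 of all 3439 probes (3.14%). The neighbour that passed was probe 4226, 2 numbers after AT5G11550 and not listed in the annotation. It had intensities of 2.10 ± 0.624 under PSI light and 0.873 ± 0.0590 under PSII light (SD, n = 3). Its log2 difference was -1.10 ± 0.19 (SE; limma, Benjamini-Hochberg adjusted p = 0.0423), and its part in the value of AT5G11550 was not tested. This call was lost with the replicate number as a block (adjusted p = 0.0510), without an intensity trend (0.0663), with the larger pseudocount (0.0713) and without PSI-light replicate 1 or any 1 PSII-light replicate (up to 0.140), by limma with Benjamini-Hochberg. Probe 4223, the number before AT5G11550, had a log2 difference of -0.25 (limma, Benjamini-Hochberg adjusted p = 0.151). Probe 1052, the number after AT3G04210, had one of -0.33 (limma, Benjamini-Hochberg adjusted p = 0.0513), and its part was likewise not tested. Beside AT4G35660, AT4G18180 and AT3G50130 the measured neighbours ranged from -0.02 for probe 2486 to 0.58 for probe 2637, the latter with intensities of 2.65 ± 0.258 under PSI light and 4.11 ± 0.854 under PSII light (SD, n = 3).

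**Figure D4:**
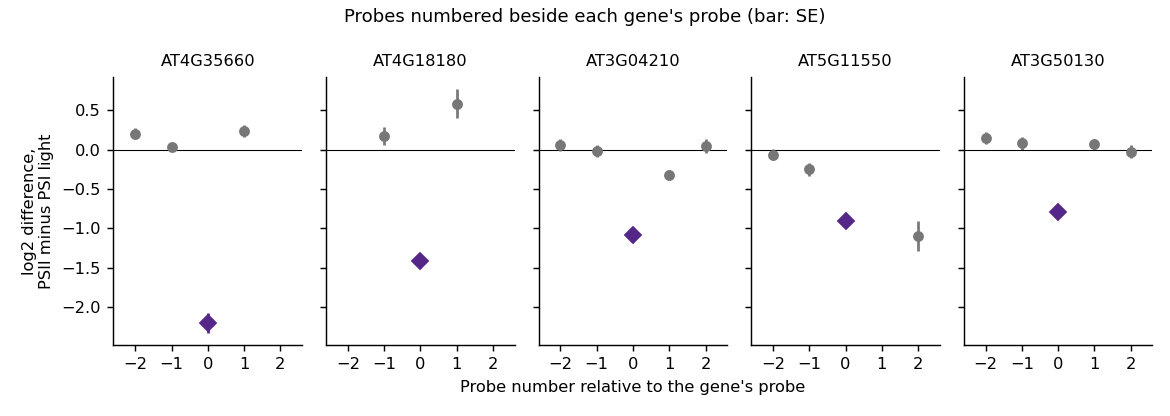
Log2 difference between PSII and PSI light (SE as bars) of each gene's probe (purple diamonds) and of the probes numbered up to 2 before and after it (grey points); numbers missing from the table have no point. Beside AT5G11550, probe 4226 lies at -1.10, and no other neighbour of the 5 genes is below -0.33.

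Relatives of AT3G04210, AT4G18180 and AT5G11550 could hardly be examined with probes of their own, and no family list was run for AT4G35660 or AT3G50130. Of 16 loci of immune signalling, among them receptors of the TIR class and the regulators they act through, 0 had a probe, and the same held for 15 loci of pectin synthesis and turnover. The symbols and synonyms in the gene table, which seldom name a protein family, gave 13 loci for the TIR-NBS family, 38 for pectin enzymes and 43 for armadillo-repeat proteins, and 0 of these had a probe of their own. For the pectin enzymes 2 probes were annotated to 2 genes each, probe 380 with a log2 difference of 0.11 and probe 2650 with one of 0.0014, and neither passed the test (lower adjusted p = 0.342, limma with Benjamini-Hochberg). The lower intensities of AT3G04210 and AT4G18180 are therefore values of single genes, and nothing is shown for immune signalling or pectin turnover as a whole.

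The single-gene probes whose log2 values followed those of the 5 genes most closely over the 12 samples were largely the same few. AT-HF was among the 3 closest to every one of the 5 genes, with a Pearson r of 0.967 to AT4G18180, 0.960 to AT5G11550, 0.956 to AT4G35660, 0.950 to AT3G04210 and 0.941 to AT3G50130. AT2G39100 had an r of 0.960 to AT5G11550, 0.956 to AT4G18180 and 0.953 to AT4G35660. AT4G34310 had an r of 0.952 to AT3G04210, 0.940 to AT3G50130 and 0.934 to AT5G11550. LHB1B2 had an r of 0.939 to AT4G35660, 0.929 to AT4G18180 and 0.926 to AT3G50130, and AT3G18870 one of 0.935 to AT3G04210. Among themselves the 5 genes had an r between 0.964, for AT4G18180 with AT3G04210, and 0.993, for AT3G04210 with AT3G50130. The samples fall into the 2 light regimes and hold repeat measurements, so these coefficients mostly restate the difference between the regimes. They are a description of the 12 samples, and no test was made on them.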

How the data were processed

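The authors deposited an intensity for every probe in every sample, linear and in arbitrary units, from 0 to 99.999999999; background correction, normalization and the kind of array are not given in the sources used here. Sample medians differed by 0.158 on the log2 scale, so a pseudocount of 0.193 (percentile 5 of the positive intensities) was added and the log2 values were quantile normalized. Repeat measurements (smallest gap in correlation 0.559) were averaged. The light regimes were set against each other in limma 3.58.1 (R 4.3.3), by a linear model and eBayes with an intensity trend. The test was two-sided and unfiltered, with Benjamini-Hochberg adjustment over the 3439 probes, and was tried on 1 simulated data set. It recovered 95 of 100 changes of 1 and 66 of 100 changes of 0.5 on the log2 scale, and 15 of its 176 calls were false. The simulated noise was independent between replicates, without the shared deviations described next. Figures were drawn with matplotlib 3.10.9. Means ± SD are of deposited intensities.

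Replicates with the same number in both regimes deviated together across probes (correlations of 0.323, 0.366 and 0.360). These replicate numbers came from the averaged pairs, and the labels do not state a pairing between regimes. The comparison was made without the replicate number as a block, as designed, and the block is an alternative.

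Genes, lists and rules were chosen with earlier results of these data known. Genes named are the 5 genes, list members with a probe, the 3 single-gene probes closest to each gene, the 3 largest falls that were called but not stable, and probes numbered within 2. AT2G36480, AT-HF as the call nearest the stability threshold, shared probes of the pectin list, and the genes of probes 3885, 4538 and AT3G50180 near AT3G50130 were added after their values were seen. Probe names came from the platform annotation of 2016; 690 of 692 single-gene probes matched the TAIR10.1 table by Entrez identifier. Sequences were not used here. Alternatives were values as deposited, median centring, a filter on dim probes, a larger pseudocount, the replicate block, repeats as a random block, other variance models, array weights and leaving out replicates.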

Additional observations from a re-analysis of the deposited data

How the results depend on the processing

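The 5 genes kept a negative difference and an adjusted p under 0.05 in all 80 combinations of gene and alternative (16 alternatives, limma with Benjamini-Hochberg). The adjusted p was at most 0.0393, reached without PSI-light replicate 1. Passing the 6 fits with 1 replicate left out was a condition for choosing the genes. The outcome of those 6 alternatives was therefore fixed in advance. With the replicate number as a block, which changed no call of the 5 genes, the adjusted p was highest for AT3G04210, at 0.0355 (limma, Benjamini-Hochberg). The number of called probes, 108, moved with the processing while these genes remained among them. It was 228 after centring each sample on its median, 235 when the dimmest 25% of probes were left out, 365 with the repeat pair as a random block, 173 with robust eBayes, 232 with array weights and 214 after subtracting a running median along the probe numbers, the last chosen after seeing the data. The cause was not tested. Leaving out 1 replicate gave 20 to 140 called probes, with fewer samples to test on. For the TIR-NBS, pectin and armadillo-repeat lists no alternative gave a value, as no listed gene had a probe of its own. A probe's intensity cannot be turned into a transcript level here, and related transcripts may add to it.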
